A study of Mus musculus with 8 samples.

Results

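The rows described here are the predicted and clone-named transcripts of NIH3T3 cells, an established mouse embryonic fibroblast line, treated for 1 day with the compound Mic-628 or its vehicle. They are the rows of the deposited exon count table whose symbol is a Gm number, a RIKEN clone name ending in Rik, or a bare Ensembl gene identifier beginning with ENSMUSG. They were selected on their measured level, a mean of at least 1 count per 1000000 (CPM) over all 8 libraries, and this level is therefore a description and not a finding. Of the table’s 78298 rows, 53049 carry such a name, 21836 of these had a count in at least 1 library, and 3558 reached the level, with 3548 distinct symbols. The rule leaves out 4 rows by name, of which 3 reach a mean CPM of 1. Both groups were the same wild-type (WT) line, sampled once after treatment, with 4 poly(A) RNA libraries in each. Batch numbers 1 to 4 each mark 1 vehicle and 1 Mic-628 library. The labels do not say that the libraries came from separate cultures, so p-values reflect only how far these libraries scatter, and that scatter may be technical. The series title speaks of an inducer of Period1 and of an advanced clock, and the comparison asks which transcripts differed with Mic-628.

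Gm names are given to mouse gene models predicted from sequence, Rik names to full-length cDNA clones of the RIKEN collection, and bare Ensembl identifiers to models without a symbol. Many such rows are long noncoding RNAs, which are spliced and polyadenylated like mRNAs but encode no known protein. Others are antisense transcripts, which run across a gene on the other DNA strand, or divergent transcripts, which start head to head with a gene. Processed pseudogenes are copies of an mRNA that was reverse transcribed and inserted elsewhere in the genome, so a short read can match both the copy and its parent gene. Where 2 transcripts overlap, a read can be told apart only by strand, and the sources used here do not state that the counting used it.

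Sequence shows how close several changed members lie to another gene. The lines below give, for 4 pseudogene members and their closest named transcript, the 60-base stretch of the coding part with the most mismatches, 5′ to 3′ on the transcript, with differing bases in capitals (GENCODE M21 transcripts). These pairs are shown because few bases tell each called member from another gene. Gm28438 matched mt-Nd3, a mitochondrial subunit of respiratory complex I, at 99.7% of 345 aligned bases.
Gm28438: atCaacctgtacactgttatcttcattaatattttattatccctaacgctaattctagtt
mt-Nd3: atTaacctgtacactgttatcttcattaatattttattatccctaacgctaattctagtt
Gm6166: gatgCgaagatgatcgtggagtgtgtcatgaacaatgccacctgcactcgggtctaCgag
Fabp5: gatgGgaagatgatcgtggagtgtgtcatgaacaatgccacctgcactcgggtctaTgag
Gm10059: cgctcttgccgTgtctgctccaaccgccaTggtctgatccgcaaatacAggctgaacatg
Rps29: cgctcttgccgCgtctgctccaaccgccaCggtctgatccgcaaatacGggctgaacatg
Gm46344: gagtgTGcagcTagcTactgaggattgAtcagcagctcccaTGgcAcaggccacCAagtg
Rpsa: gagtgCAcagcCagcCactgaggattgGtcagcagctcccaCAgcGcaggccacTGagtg
Gm6166 and Fabp5, which encodes a fatty acid binding protein, matched at 98.3% of 409 bases. Gm10059 and the ribosomal protein gene Rps29 matched at 98.2% of 171 bases, and Gm46344 and Rpsa, another ribosomal protein gene, at 95.1% of 889 bases. A 60-base stretch of Gm28438 held at most 1 mismatch, while Gm46344 had a stretch with 10.

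Listed rows held between 18.1 M and 23.2 M counts (M, mega) per library, and all 10 fibroblast markers reached a mean CPM of 1, with summed levels of 22070 to 23677 CPM with vehicle and 19681 to 20274 CPM with Mic-628. Of 6 macrophage and blood markers 2 reached 1 CPM (Csf1r and Cd68, while Adgre1 was at 0), and of 4 epithelial and 3 endothelial markers 1 (Krt8) and 0 did so. In bulk RNA, fewer cells of a type and less RNA per cell cannot be told apart.

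The members were mostly low. Their median level was 3.51 CPM and the highest 1932 CPM. Of the 3558 members, 1591 (44.7%) lay between 1 and 3 CPM and 69 reached 100 CPM. The median coefficient of variation over the vehicle libraries was 16.0% for members of 1 to 3 CPM and 4.40% for those of 30 CPM and over. Together the members took 5.18% to 5.29% of the counts in each vehicle library and 5.08% to 5.25% in each Mic-628 library, so the groups overlapped.
The members just inside the threshold were Gm38331 (1.00007 CPM), Gm37899 (1.00055 CPM) and Gm20444 (1.00093 CPM). The rows just outside were Gm49475 (0.999742 CPM), Gm17491 (0.999015 CPM) and Gm37123 (0.998862 CPM).

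At the top of the range, members lay over abundant named genes. ENSMUSG00000140383 averaged 1932 CPM and overlaps the ribosomal protein gene Rplp0 (2654 CPM) on the opposite strand. Gm10252 averaged 1899 CPM and overlaps Ftl1, the ferritin light chain (3384 CPM), also on the opposite strand. ENSMUSG00000134718 averaged 1409 CPM against Vim, the intermediate filament vimentin (4645 CPM). The other 7 of the 10 highest were Gm45713 (1249 CPM, overlapping Rpl13a on the same strand), ENSMUSG00000143980 (890 CPM, opposite Lgals1), Gm49804 (876 CPM, same strand as Rps10), ENSMUSG00000132256 (868 CPM, opposite Rps2-ps13), ENSMUSG00000121489 (678 CPM, opposite Hsp90b1), Gm56964 (633 CPM, opposite Rps12) and Gm13394 (608 CPM, a processed pseudogene). Of these 10, ENSMUSG00000134718 and Gm56964 were called changed, and both fell.

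With edgeR's quasi-likelihood test and Benjamini-Hochberg adjustment over all 17128 tested rows, 749 rows (4.37%) had an adjusted p under 0.05 and are called changed, 364 (2.13%) higher and 385 (2.25%) lower with Mic-628. All 3558 members passed the filter on low counts. Of them 74 were called (2.08%), 32 higher and 42 lower, a smaller share than over all rows. Some called members reached the mean of 1 CPM only through the group where they were high. These were ENSMUSG00000136259, ENSMUSG00000141967 and Gm37899 through Mic-628, and Gm10059, Gm14866, ENSMUSG00000132287 and 1700065D16Rik through vehicle. Their fold changes and group separation rest on values that the selection used, and only describe these rows. At an unadjusted p under 0.05, 414 of 3558 members and 2905 of 17128 tested rows qualified, again a smaller share of the members. The median log2 fold change was -0.02 over the members and -0.004 over all tested rows. Changes were modest: the median size of a called member's log2 fold change was 0.36, and 19 of 74 changed by at least 1.5-fold, 13 up and 6 down. In 67 of 74 the direction was the same in all 4 batch pairs. The calls came from these same libraries, so this describes the called members and is no separate support. The count of 74 became 36 without vehicle 2, 39 without Mic-628 1 and 34 without Mic-628 3, 43 with DESeq2 and 21 with DESeq2 and the batch as a block.

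**Figure D1:**
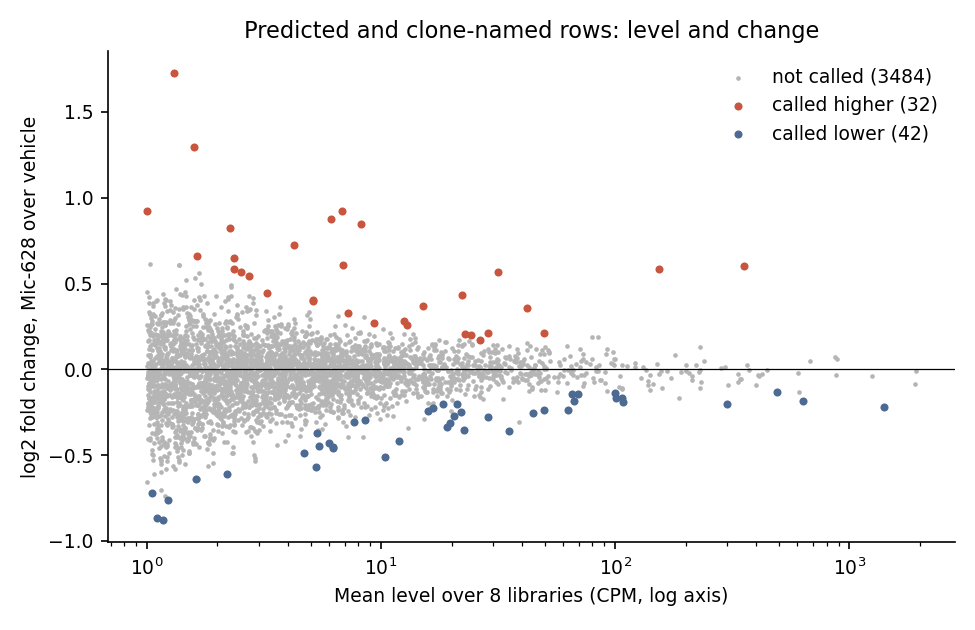
Each point is 1 of the 3558 members, with its mean level over 8 libraries on a log axis (CPM) and its log2 fold change, Mic-628 over vehicle. Called rises (32, red) reach 1.73, called falls (42, blue) reach -0.88, and 19 of the 74 called points reach a 1.5-fold change.

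The share called rose with level. Between 1 and 3 CPM, 0.943% of members were called (15 of 1591) against 2.40% of rows with other symbols (23 of 958). Between 3 and 10 CPM the shares were 1.55% and 3.41%. From 10 to 30 CPM they were 4.16% and 3.98%, and at 30 CPM and over 7.60% (20 of 263) and 7.66% (459 of 5993). The shares lay close together from 10 CPM upward, and no test was made of the difference below it.

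**Figure D2:**
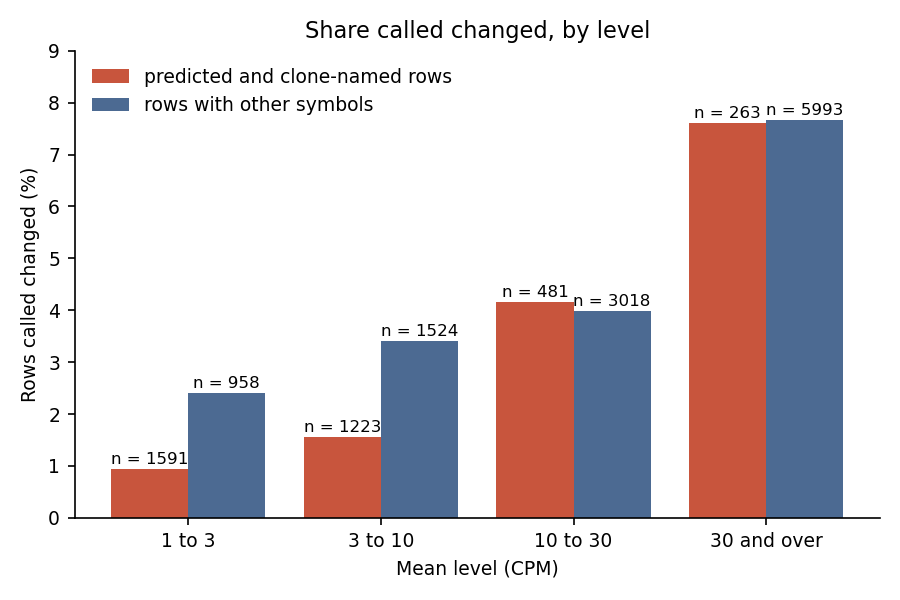
Bars give the percentage of rows called changed by edgeR in 4 ranges of mean level (CPM), for members (red) and rows with other symbols (blue), with the number of rows above each bar. Both shares rise with level, from 0.943% to 7.60% for members.

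By name, 27 of 1247 ENSMUSG rows were called (12 higher, 15 lower), 40 of 1869 Gm rows (14 higher, 26 lower) and 7 of 442 Rik rows (6 higher, 1 lower). These shares were 2.17%, 2.14% and 1.58%, beside 2.08% of all members and 4.37% of all tested rows (2.13% higher, 2.25% lower). Rows of 1 exon were called in 28 of 1259 cases (2.22%) and spliced rows in 46 of 2299 (2%). GENCODE M21 held 1759 members (49.4%) by transcript identifier. In its classes 8 of 426 antisense rows were called (1.88%), 8 of 292 other long noncoding rows (2.74%) and 5 of 290 protein-coding rows (1.72%). Of the small RNA rows 0 of 33 were called, and 1 had an unadjusted p under 0.05 in edgeR. The small RNA rows had a median log2 fold change of 0.12 and were below 0 in 7 of 33 cases (21.2%). Over all tested rows the median was -0.004, with 51.6% below 0. The small RNA rows had a median level of 1.40 CPM, close to the threshold, and a shift of this class was not tested. RefSeq matched 1039 members by symbol, and 5 of 472 it lists as lncRNA were called (1.06%). No test was made between these groups.

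Most members share ground with a named gene. Of the 3558, 2119 overlap a named row of at least 1 CPM on the opposite strand only, 402 on the same strand only, 65 on both and 972 on neither. The 74 called members fell into these classes as 38, 12, 1 and 23, or 1.79%, 2.99%, 1.54% and 2.37% of each class. Head-to-head starts, within 1000 bases of a named row's start on the other strand, were found for 279 members. Some of these also overlap a named row. Of the 279, 4 were called (1.43%), against 4.37% of all tested rows and 2.08% of members. Of the 51 called members with an overlapping named row, that row was called in the same direction for 37, in the other direction for 0, and was not called for 14. Over all members with a single partner, the partner was called in 138 of 1948 opposite-strand and 13 of 303 same-strand pairs. Overlapping rows may share reads, so this agreement describes the table.

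Among 1948 members with a single opposite-strand partner, the member's level was a median 7.91% of the partner's (CPM, not per length; quartiles 4.21% and 16.0%), and 29 members exceeded it. Their log2 fold changes had a Pearson r of 0.57 and a Spearman rho of 0.48 over the 1948 pairs, and r was 0.90 over the 107 pairs with a member of at least 30 CPM. Each point compares 2 rows of the same libraries that may share reads, so the correlation describes the table. Where the partner was called (138 pairs), the member had the same sign in 129 and was itself called in 27. Over 303 same-strand pairs r was 0.49, and 0.95 over 34 with a member of at least 30 CPM.

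**Figure D3:**
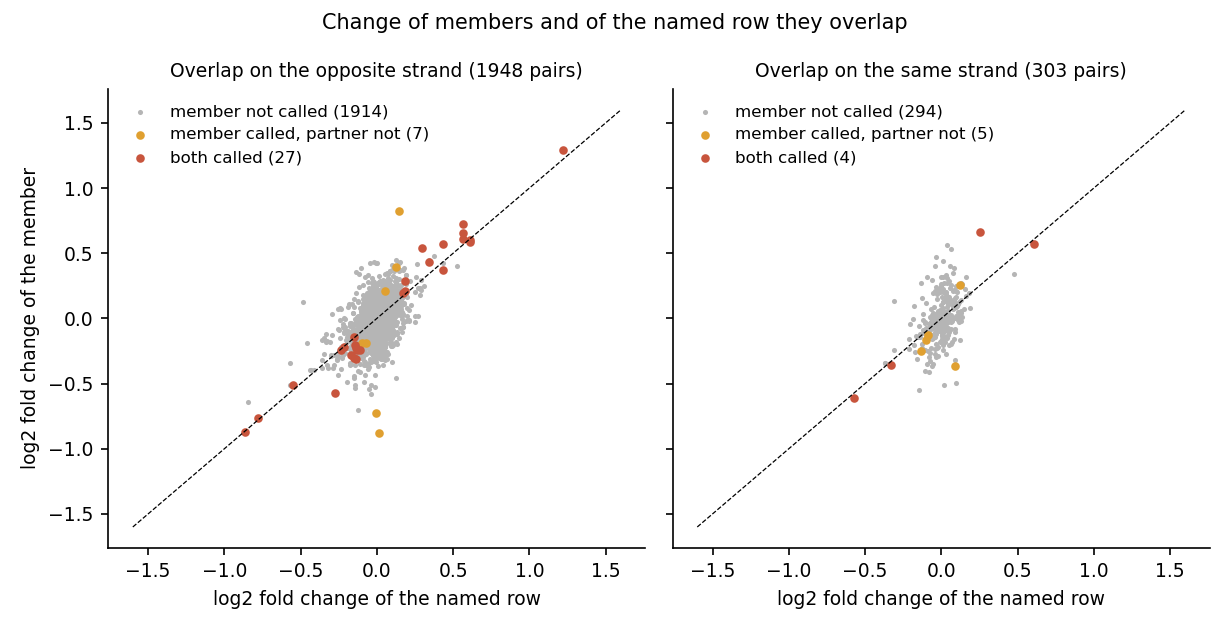
Log2 fold change (Mic-628 over vehicle) of each member against that of the 1 named row it overlaps, on the opposite strand (left, 1948 pairs) or the same strand (right, 303 pairs); the dashed line marks equal change. In the 27 and 4 pairs with both rows called (red), member and partner have the same sign.

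In a few pairs the rows held almost the same counts. Of the 1948 opposite-strand pairs, 5 agreed within 3% in every library. Among them, ENSMUSG00000142555 was named after its values were seen. ENSMUSG00000142555 and Hilpda, a lipid droplet protein gene, span nearly the same bases of chromosome 6 on opposite strands (29272622 to 29275450 and 29272625 to 29275445, mm39). Their counts in the vehicle libraries were 1181 and 1181, 1304 and 1302.5, 1075.5 and 1076.5, and 966.5 and 965.5. With Mic-628 they were 756.5 and 760, 1109 and 1111, 955.5 and 955.5, and 1019.5 and 1016.5. The ratio stayed between 0.995 and 1.003, so the table does not tell the strands apart here. Both rows were called lower, ENSMUSG00000142555 by 0.24 and Hilpda by 0.24 on the log2 scale (adjusted p = 0.0294 and 0.0292, edgeR), although vehicle and Mic-628 libraries overlapped. Without vehicle 2 the adjusted p of ENSMUSG00000142555 was 0.164, and the call was also lost without vehicle 1, Mic-628 1 or Mic-628 3, and with DESeq2 (0.192). The other 4 pairs were ENSMUSG00000132287 with Rpl9-ps7, Gm5148 with Rps23-ps1, Gm56670 with Znhit2 and Gm47428 with Ftl1-ps1. Identical counts in every library also tied 17 members to another row, in 9 same-strand pairs and 1 opposite-strand pair (Gm13192 and ENSMUSG00000129577).

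The largest rise stood beside Gfra1, the co-receptor of the neurotrophic factor GDNF. ENSMUSG00000136259 (chromosome 19, 58443996 to 58454981, plus strand) starts head to head with Gfra1, 166 bases away, and the 2 spans do not overlap. It measured 0.640, 0.668, 0.550 and 0.537 CPM under vehicle against 1.55, 1.94, 2.65 and 1.91 CPM under Mic-628. Every Mic-628 library lay above every vehicle library. The means were 0.599 ± 0.065 and 2.01 ± 0.463 CPM (SD, n = 4 each), so the row passed the threshold of 1 CPM only through Mic-628. This is a 3.31-fold rise, or 1.73 on the log2 scale with a standard error (SE) of 0.22 (edgeR adjusted p = 8.49e-06), and later ± values are SD for levels and SE for log2 fold changes. Gfra1 rose from 22.4 ± 1.10 to 66.5 ± 1.46 CPM, 2.96-fold (log2 fold change 1.57 ± 0.04, adjusted p = 1.05e-18). The member's level was 2.94% of that of Gfra1, and whether the 2 changes differ was not tested.

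The next largest rise lay opposite the 3′ end of Hspb7, which encodes a small heat shock protein. ENSMUSG00000141967 (chromosome 4, 141151657 to 141152624, minus strand) measured 0.566, 1.11, 1.03 and 0.957 CPM under vehicle against 1.88, 2.33, 2.44 and 2.43 CPM under Mic-628, with no overlap of the groups. Its vehicle mean was 0.914 CPM, so it passed the threshold of 1 CPM only through Mic-628, and its separation and change only describe the row. The log2 fold change was 1.29 ± 0.19 (edgeR adjusted p = 7.55e-05), beside 1.22 ± 0.08 for Hspb7 (6.24e-11). ENSMUSG00000123419, opposite the chaperone gene Cryab and named here after its values were seen, rose from 13.2 ± 0.529 to 17.1 ± 1.54 CPM (log2 fold change 0.37, adjusted p = 0.00135), and Cryab by 0.43. ENSMUSG00000142454, opposite Hsph1 (Hsp110 family), was also named after its values were seen. Its Mic-628 libraries ranged from 1.66 to 4.53 CPM and overlapped the vehicle range of 1.49 to 1.85 CPM. It was called higher (log2 fold change 0.82, adjusted p = 0.0306), but not without vehicle 2, 3 or 4 or Mic-628 3 or 4 (up to 0.147).

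**Figure D4:**
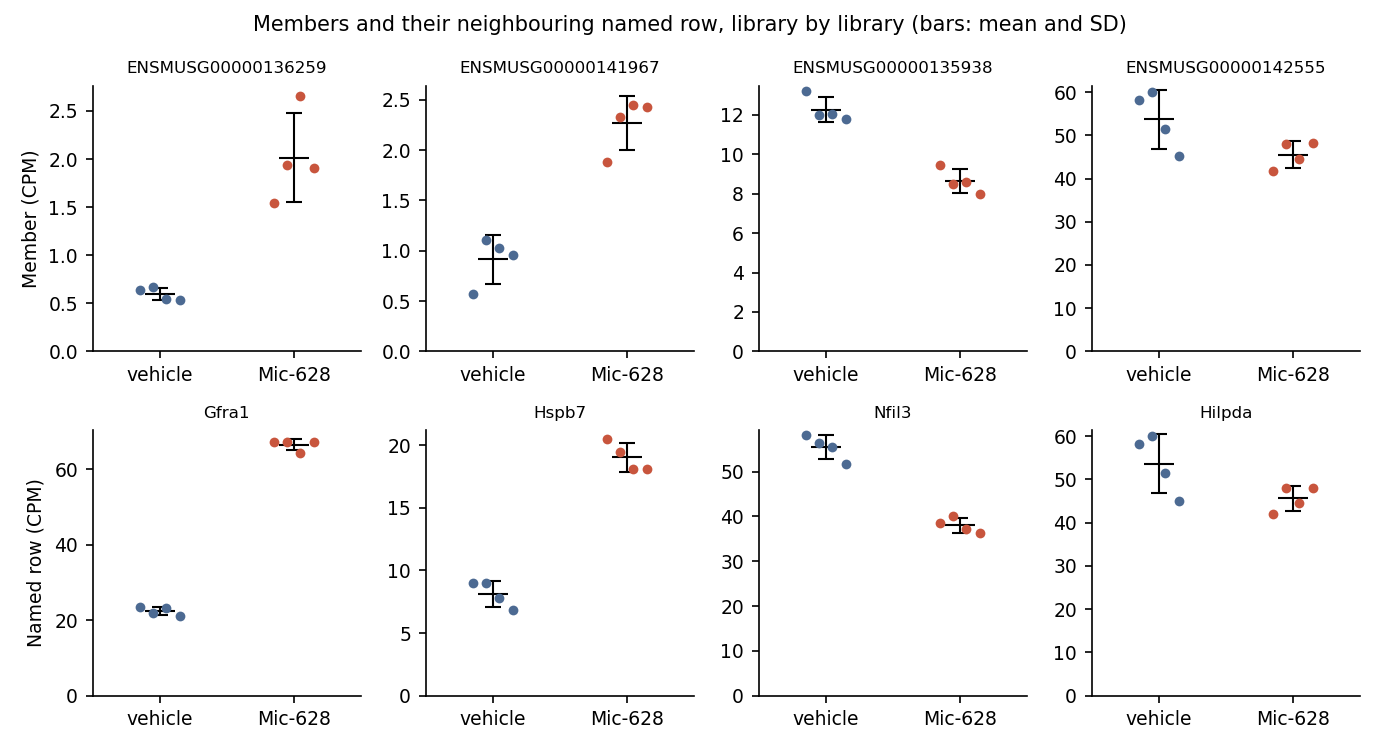
Level (CPM, axes from 0) in each of 4 vehicle and 4 Mic-628 libraries for 4 members (top) and the named row beside or across from each (bottom); bars show mean and SD. The first 3 members and their named rows separate the groups, while ENSMUSG00000142555 and Hilpda overlap between groups and match each other. ENSMUSG00000136259 and ENSMUSG00000141967 passed the threshold of 1 CPM only through Mic-628.

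Around Hhipl1, a gene related to the hedgehog inhibitor HHIP, 3 members on the opposite strand of chromosome 12 were called higher. ENSMUSG00000143365 measured 2.95, 2.60, 4.18 and 3.08 CPM under vehicle against 5.74, 5.31, 5.54 and 4.70 CPM under Mic-628. Its log2 fold change was 0.72 ± 0.13 (edgeR adjusted p = 0.000856). 4930478K11Rik rose from 1.82 ± 0.304 to 2.88 ± 0.161 CPM (0.65, adjusted p = 0.00959), and ENSMUSG00000134047 from 5.43 ± 0.344 to 8.30 ± 0.438 CPM (0.61, 6.36e-05). None of the 3 had overlapping groups. The call of 4930478K11Rik was lost with DESeq2 and the batch as a block (adjusted p = 0.259), without batch 2 (0.0508), without batch 3 (0.126) and without vehicle 1 and 2 together (0.0802). Hhipl1 rose from 66.2 ± 4.81 to 98.6 ± 2.43 CPM (0.57, 7.75e-10).

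At Malat1, an abundant nuclear long noncoding RNA on chromosome 19, 3 members rose by about as much as the gene. ENSMUSG00000130597, on the opposite strand, measured 299, 233, 257 and 338 CPM under vehicle against 434, 421, 386 and 478 CPM under Mic-628. Its log2 fold change was 0.60 ± 0.07 (edgeR adjusted p = 6.33e-06). Gm37376, nested in it on the same strand with 0.427 to 0.440 of its counts, rose by 0.59 (8.47e-06), and Gm55521, inside Malat1 on the same strand, by 0.57 (4.44e-05). Malat1 itself rose from 552 ± 96.1 to 847 ± 67.6 CPM (0.61, 6.38e-06). In each of these rows the lowest Mic-628 library exceeded the highest vehicle library.

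Gm37939 (chromosome 5, 124142711 to 124144214, plus strand) lies where the 3′ ends of Hip1r, a clathrin and actin linker gene, and Vps37b, an ESCRT-I subunit gene, meet. It measured 4.48, 4.40, 3.80 and 4.39 CPM under vehicle against 7.65, 8.14, 7.77 and 8.07 CPM under Mic-628. The log2 fold change was 0.88 ± 0.09 (edgeR adjusted p = 6.01e-07), the smallest adjusted p among the members. Vps37b rose by 0.74 and Hip1r by 0.45.

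A pair of nested rows that copy a mitochondrial gene also rose. Gm28438 (chromosome 1, 24651856 to 24652200, minus strand) is an unprocessed pseudogene whose near identity to mt-Nd3 is printed above, and ENSMUSG00000138098 contains it. Gm28438 measured 5.37, 2.90, 3.51 and 7.002 CPM under vehicle against 10.4, 8.33, 8.66 and 8.59 CPM under Mic-628, with vehicle 4 closest to the treated libraries. Its log2 fold change was 0.92 ± 0.16 (edgeR adjusted p = 0.000558), and that of ENSMUSG00000138098 0.85 ± 0.13 (0.000214). The call of each was lost when log2(FPKM + 1) was tested with limma-trend (adjusted p = 0.0810 and 0.0606). mt-Nd3 itself was listed at 1.61 CPM (log2 fold change -0.38, adjusted p = 0.376), below its copy. mt-Co2, mt-Atp6 and mt-Co3 were listed at 12.9, 10.5 and 20.0 CPM, whereas mt-Nd1 reached 3389 CPM and mt-Co1 11686 CPM. Gm13341, a chromosome 2 copy of mt-Co2 named after its values were seen, was called lower instead (log2 fold change -0.27, adjusted p = 0.0244), at 20.5 CPM. That call was lost without vehicle 1 or 2 or Mic-628 1, 3 or 4, with an adjusted p of up to 0.104. All mitochondrial rows together took 2.82% to 2.98% of counts with vehicle and 2.89% to 3.36% with Mic-628, and the part of this in the rise of Gm28438 was not tested.

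On chromosome 5, 3 overlapping minus-strand rows with no named partner were called higher together. Gm15411 (148932461 to 148952623) measured 1.55, 2.23, 1.65 and 2.05 CPM under vehicle against 2.46, 2.89, 3.26 and 2.67 CPM under Mic-628, without overlap (log2 fold change 0.58 ± 0.15, edgeR adjusted p = 0.0275). Gm15406 and 1810059H22Rik, named after their values were seen, rose by 0.40 (0.0269) and 0.33 (0.0318). These are weak calls. That of Gm15411 was lost without vehicle 1, vehicle 3, Mic-628 2 or Mic-628 3 (adjusted p up to 0.125), and those of Gm15406 and 1810059H22Rik without 5 and 6 of the 8 libraries in turn (up to 0.145 and 0.144). With the batch as a block 1810059H22Rik had an adjusted p of 0.0515.

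The remaining named rises were Gm37899, Gm17024 and Gm11615. Gm37899 (chromosome 12, 109635303 to 109644019, plus strand) went from 0.677 ± 0.116 to 1.32 ± 0.306 CPM (log2 fold change 0.92, edgeR adjusted p = 0.0202). It passed the threshold of 1 CPM only through Mic-628, so its change and separation only describe the row. Gm17024, inside Ifrd1 on the same strand, went from 1.27 ± 0.037 to 2.00 ± 0.238 CPM (0.66, 0.0203), and Ifrd1, an early response gene, rose by 0.26 (1.47e-05). Gm11615, opposite the kinase gene Wnk4, went from 2.03 ± 0.225 to 3.00 ± 0.288 CPM (0.57, 0.0171), and Wnk4 rose by 0.43 (3.43e-05). All 3 separated the groups, and each lost its call without some library. These were vehicle 2, vehicle 3, Mic-628 1 or Mic-628 4 for Gm37899 (adjusted p up to 0.0925), vehicle 2, Mic-628 2 or Mic-628 4 for Gm17024 (up to 0.0715), and vehicle 2, Mic-628 2 or Mic-628 3 for Gm11615 (up to 0.0679).

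A few more rises at higher levels were named after their values were seen. ENSMUSG00000135161, opposite the 3′ end of Irak2, a kinase of interleukin-1 and Toll-like receptor signalling, also starts 86 bases from Tatdn2. It measured 19.1, 17.9, 17.997 and 20.4 CPM under vehicle against 24.8, 26.3, 26.6 and 24.6 CPM under Mic-628. The groups did not overlap, and the log2 fold change was 0.44 ± 0.06 (edgeR adjusted p = 1.14e-05). Irak2 rose by 0.34 (1.14e-05) and Tatdn2 by 0.48 (1.12e-08). ENSMUSG00000141936, opposite the translation factor gene Eif3c, rose from 45.8 ± 2.20 to 53.3 ± 1.37 CPM (0.21, 0.00214). Its neighbours were not called: Eif3c was at 0.06 (0.370) and Atxn2l, which starts head to head with it, at 0.01 (0.888). The call of ENSMUSG00000141936 was lost with DESeq2 and the batch as a block (adjusted p = 0.0617) and without batch 3 (0.0785).

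The called falls were smaller than the called rises, with a median size of 0.29 against 0.56 on the log2 scale. They also differed in level. At 30 CPM and over 15 called members were lower and 5 higher, and at 1 to 3 CPM 6 were lower and 9 higher. The part of level in the difference in size was not tested. ENSMUSG00000135938 lies opposite Nfil3, a bZIP repressor that acts with the clock, on chromosome 13 (53107366 to 53122535, plus strand). It measured 13.2, 12.0, 12.0 and 11.8 CPM under vehicle against 9.47, 8.51, 8.57 and 7.98 CPM under Mic-628. Every Mic-628 library lay below every vehicle library (log2 fold change -0.51 ± 0.07, edgeR adjusted p = 7.21e-05). Nfil3 fell from 55.4 ± 2.71 to 38.02 ± 1.68 CPM (-0.55, 3.31e-09), and the member held 22.4% of its CPM.

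Other members near clock genes were 2. ENSMUSG00000136383, opposite the bZIP activator gene Tef, measured 1.80, 1.87, 2.46 and 1.94 CPM under vehicle against 1.52, 1.73, 1.07 and 0.873 CPM under Mic-628. The libraries did not overlap, but the edgeR adjusted p of 0.0716 missed the threshold (log2 fold change -0.64 ± 0.20). Tef fell by 0.85 on the log2 scale (2.12e-12). D930015M05Rik, opposite the clock repressor gene Cry2, was at 1.42 ± 0.312 and 1.26 ± 0.280 CPM (-0.19 ± 0.21, adjusted p = 0.707), with overlapping groups, while Cry2 fell by 0.46 (1.80e-06). The difference between either member and its partner was not tested.

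Further falls lay at the end of Spp1 and within Col3a1, which were called lower too. Gm42793, at the 5′ end of Spp1 (osteopontin) on the same strand, measured 38.7, 42.2, 37.2 and 39.6 CPM under vehicle against 30.4, 27.7, 32.5 and 33.3 CPM under Mic-628 (log2 fold change -0.36 ± 0.05, edgeR adjusted p = 0.000132). Spp1 fell by 0.33 (5.29e-07). Gm54819, 140 bases long within Col3a1 (collagen III), fell from 2.63 ± 0.356 to 1.75 ± 0.291 CPM (-0.61, edgeR adjusted p = 0.0284), and Col3a1 by 0.57 (8.57e-07). The groups did not overlap in either member, but Gm54819 lost its call without vehicle 2, vehicle 4, Mic-628 1 or Mic-628 3 (adjusted p up to 0.136).

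ENSMUSG00000132639 and ENSMUSG00000141911, named after their values were seen, had larger fitted falls than the gene across from them. ENSMUSG00000132639 measured 62.2, 67.9, 70.9 and 71.4 CPM under vehicle against 54.4, 57.3, 58.8 and 60.97 CPM under Mic-628 (log2 fold change -0.24 ± 0.04, edgeR adjusted p = 0.00147). Psap, the lysosomal prosaposin gene on the opposite strand, fell by 0.11 (0.0474). ENSMUSG00000141911 fell from 115 ± 4.98 to 101 ± 5.13 CPM (-0.19, 0.00495), opposite the elongation factor gene Eef2 (-0.07, 0.207), and lost its call without batch 2 (0.0897). Neither member’s groups overlapped, and whether member and gene differ was not tested.

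At the highest level, ENSMUSG00000134718, opposite Vim, measured 1492, 1516, 1491 and 1553 CPM under vehicle against 1263, 1334, 1292 and 1330 CPM under Mic-628. The groups were well apart for so small a change (log2 fold change -0.22 ± 0.03, edgeR adjusted p = 4.13e-05). Vim fell by 0.22 (5.37e-05). Gm56964, opposite the ribosomal protein gene Rps12, was called lower by 0.19 (0.0107) with overlapping groups, 672 ± 33.2 and 593 ± 41.5 CPM, while Rps12 had -0.10 (0.101). Without batch 2 the adjusted p of Gm56964 was 0.114. Gm13394 had an adjusted p of 0.0708, and 0.0285 with the batch as a block.

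For several called falls the overlapping named row was not called. Gm10059, a copy of Rps29 inside Letm1 on the opposite strand, measured 1.62, 1.80, 1.58 and 1.12 CPM under vehicle against 0.442, 0.993, 1.12 and 0.708 CPM under Mic-628 (log2 fold change -0.88 ± 0.23, edgeR adjusted p = 0.0286). Its groups nearly touch, with vehicle 4 at 1.120 and Mic-628 3 at 1.117 CPM. Letm1 was at 0.01 (0.921) and Rps29 at -0.15 (0.0476). 1700065D16Rik, opposite the 5′ end of the DNA damage kinase gene Atr, fell from 1.32 ± 0.159 to 0.784 ± 0.087 CPM (-0.72, 0.0405), with Atr at -0.01 (0.945). The call of 1700065D16Rik was lost without any 1 of the 8 libraries (adjusted p 0.0502 to 0.131) and with the block (0.0563), and that of Gm10059 without vehicle 2, vehicle 3, Mic-628 1 or Mic-628 4 (up to 0.119). Both 1700065D16Rik and Gm10059 passed the threshold of 1 CPM only through vehicle, so their falls only describe these rows.

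Gm14866 and ENSMUSG00000132287 fell with their partners. Gm14866 measured 1.26, 1.43, 1.34 and 1.68 CPM under vehicle against 0.994, 1.08, 0.442 and 0.614 CPM under Mic-628 (log2 fold change -0.87, edgeR adjusted p = 0.0299), opposite Gdpd2, a phosphodiesterase gene (-0.86, 0.00135). ENSMUSG00000132287 fell by 0.76 (0.0339) and shares its counts with Rpl9-ps7. Gm14866 lost its call without vehicle 2, 3 or 4 or Mic-628 3 or 4 (up to 0.145), and ENSMUSG00000132287 in 6 of 8 such fits (up to 0.119). Both Gm14866 and ENSMUSG00000132287 passed the threshold of 1 CPM only through vehicle, so their falls only describe these rows.

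Processed pseudogene rows lay mostly below 0, and 2 vehicle libraries held these rows at higher levels than the rest. GENCODE M21 lists 451 members in this class. Of them 2 were called higher and 10 lower, or 2.66% of the class against 4.37% of all tested rows. The median log2 fold change of the class was -0.14, and 345 of 451 (76.5%) lay below 0, against 51.6% of all tested rows. In each library, the median over these rows of the log2 ratio to the 8-library mean was 0.22, 0.17, -0.04 and -0.11 with vehicle and -0.11, 0.01, -0.08 and -0.13 with Mic-628. Vehicle 1 and vehicle 2 stood above the other 6 libraries, and vehicle 3 and 4 lay within the range of the Mic-628 libraries. Without vehicle 1 and 2, a fit added after the data were seen, the median was -0.01, with 234 of 451 below 0 and 1 called lower. These 2 libraries were left out because they were highest, so a move toward 0 followed from the choice and tests nothing. Without vehicle 1 alone the median was -0.10, with 316 of 451 below 0 and 4 called lower. Without vehicle 2 alone it was -0.11, with 329 of 451 below 0 and 1 called lower. The falls called in this class number 25 without vehicle 4, and 1 without Mic-628 1, 4 without Mic-628 3 and 2 without Mic-628 4.

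**Figure D5:**
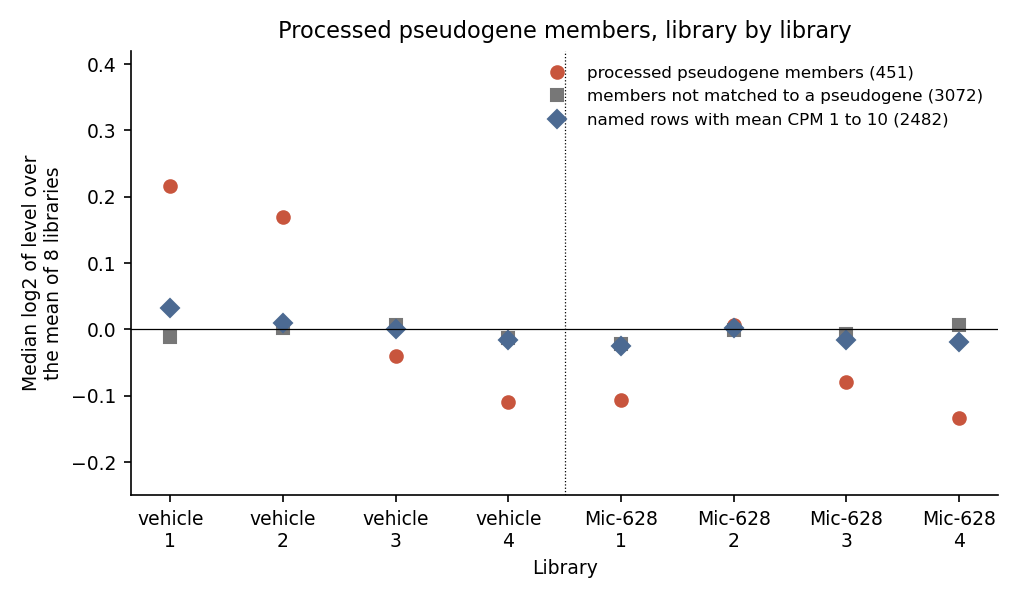
For each library, the median over rows of the log2 ratio of a row's CPM to its mean over 8 libraries, for processed pseudogene members (red), members outside the pseudogene classes (grey) and named rows of 1 to 10 CPM (blue). The pseudogene medians are 0.22 and 0.17 in vehicle 1 and 2 and between -0.13 and 0.01 in the other 6 libraries; the other rows stay near 0.

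The parents of these copies had a median change near 0. For 327 processed pseudogene members a named parent transcript matched at 95% identity or more over at least 80% of the member, with 177 parents in all, 154 of the 327 members being copies of ribosomal protein genes. The members' median log2 fold change was -0.14 and that of the parents -0.01, and 252 of 327 members lay below their parent. The copies had a median of 0.457% of their parent's CPM. Across the 327 pairs the log2 fold changes had r = 0.39 and rho = 0.33, over points that share libraries, parents and possibly reads.

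Single called pseudogenes ran in both directions. Gm6166, the Fabp5 copy printed above, measured 38.7, 36.4, 35.6 and 36.2 CPM under vehicle against 46.9, 49.0, 47.8 and 45.0 CPM under Mic-628. The groups were well separated (log2 fold change 0.36 ± 0.04, edgeR adjusted p = 4.01e-06), and Fabp5 rose by 0.33 (4.61e-07). Gm7993, a copy of Odc1, the ornithine decarboxylase gene of polyamine synthesis, rose by 0.21 (0.0459; 0.0529 with the block), and Odc1 by 0.15 (0.00862). Both were named after their values were seen. Gm6789, a copy of the elongation factor gene Eef1a1, fell from 25.4 ± 2.11 to 19.8 ± 2.40 CPM (-0.35, 0.00296), while Eef1a1 was at -0.02 (0.805). The Gapdh copy Gm10327 fell by 0.43 (0.0337) and Gapdh, a glycolytic enzyme gene, by 0.16 (0.00373). Gm46344, the Rpsa copy, was called lower by 0.45 (0.0442) with Rpsa at 0.03 (0.665), and held 1 to 1.01 times the counts of ENSMUSG00000139890 on the opposite strand in each library. Its groups overlapped, and the call was lost in 6 of 8 fits without a library (up to 0.175) and with the block (0.0732). Gm46344 and ENSMUSG00000139890 too were named after their values were seen. Gm6992, a copy of Pkm, fell by 0.64 (0.0388; 0.0585 with the block), with Pkm at -0.06 (0.431). Gm16580, a Pabpc1 copy inside Luc7l, fell by 0.37 (0.0480), Gm5237, related to Eno1b, by 0.45 (0.0366), and ENSMUSG00000121727, a Cd63 copy, by 0.49 (0.0153). Pabpc1 and Cd63 were not called, whereas Eno1b was called lower (-0.14, 0.00751). Cd63-ps, which ENSMUSG00000121727 overlaps on the same strand at 101.6% of its CPM, was called lower too (-0.50, 0.0144). Hsd17b4, whose span on the same strand holds ENSMUSG00000121727, was not called (0.07, 0.311).
The falls of Gm10327 and Gm6992 were lost without vehicle 1, among other libraries (6 and 7 of 8 in turn, adjusted p up to 0.146 and 0.114), and that of Gm7993 without 6 of 8 (up to 0.183). Gm16580 and Gm5237 each lost the call without 6 of 8 (up to 0.192 and 0.155), and ENSMUSG00000121727 without vehicle 2 or Mic-628 1 (up to 0.0635).

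Leaving out each library in turn, 24 of the 74 called members kept their call in every fit, and 14 did so under every alternative that gave a value. These 14 were the Gfra1 neighbour ENSMUSG00000136259, ENSMUSG00000141967, Gm37939, ENSMUSG00000143365, ENSMUSG00000134047, the Malat1 rows ENSMUSG00000130597, Gm37376 and Gm55521, ENSMUSG00000123419, ENSMUSG00000135161 and Gm6166 among the rises, and ENSMUSG00000135938, Gm42793 and ENSMUSG00000134718 among the falls. DESeq2 gave no adjusted p for ENSMUSG00000136259 and ENSMUSG00000141967, and both reached the mean of 1 CPM only through Mic-628. All these fits reuse the libraries on which the members were called, so the list describes the calls and is no separate support.

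RefSeq promoter windows (GRCm38.p6, 250 bases before to 50 after a start) were held for 508 members, and for 2 of the 30 named largest rises and falls. Windows of these 2 members are printed because no other member of that list had one. Neither has a called named gene across from it. Each window is the one nearest the member's GENCODE M21 start, 67 bases away for Gm15411 and 440 bases for 1700065D16Rik. Capitals mark a CACGTG E-box, the element bound by CLOCK and BMAL1.
Gm15411, chr5:149015831-149016130, minus strand: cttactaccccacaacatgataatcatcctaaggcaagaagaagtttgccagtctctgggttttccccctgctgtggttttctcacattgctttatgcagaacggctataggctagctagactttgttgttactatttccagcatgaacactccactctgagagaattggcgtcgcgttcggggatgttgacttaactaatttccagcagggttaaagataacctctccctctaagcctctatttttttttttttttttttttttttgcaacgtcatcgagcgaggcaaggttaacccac
1700065D16Rik, chr9:95857833-95858132, minus strand: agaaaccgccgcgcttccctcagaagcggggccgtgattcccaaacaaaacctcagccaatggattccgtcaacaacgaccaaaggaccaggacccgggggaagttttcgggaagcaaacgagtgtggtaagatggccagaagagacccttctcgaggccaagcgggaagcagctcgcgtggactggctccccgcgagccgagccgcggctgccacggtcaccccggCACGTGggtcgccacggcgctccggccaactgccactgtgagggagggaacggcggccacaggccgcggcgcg
The motifs CACGTG, TGACGTCA, GAANNTTC, TTATGTAA and AGGTCA were searched on both strands. The window of 1700065D16Rik holds 1 CACGTG and none of the others, and that of Gm15411 holds none of the 5. Of all 32851 RefSeq windows 7.15% hold CACGTG, 1.79% TGACGTCA, 7.86% GAANNTTC, 0.938% TTATGTAA and 16.3% AGGTCA, and of the 610 windows of members 54, 12, 43, 6 and 81 do. A match describes letters and not a bound site.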

How the data were processed

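Poly(A) RNA libraries of NIH3T3 cells (4 vehicle, 4 Mic-628, 1 day) were made with a stranded kit and read as paired ends, per the labels' protocols. The tools named in the submitters' processing notes are bcl2fastq, STAR 2.7.10a and HOMER 4.11, and the build is GRCm39 (mm39); no roles are given. The authors deposited estimated counts over exons, in steps of 0.5, for 78298 canonical transcripts, and FPKM values for the same rows. The FPKM equal the deposited counts divided by exon length and header total to within 5e-04, and use of strand is not stated. Columns were matched to samples by library name.

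CPM is the deposited count over its column sum, and coordinates are those of the table on mm39. Counts were rounded to whole numbers and fitted over all rows in R 4.3.3 with edgeR 4.0.16 (filterByExpr with a minimum count of 10, TMM, quasi-likelihood F test, no block, Benjamini-Hochberg over 17128 rows). TMM factors lay between 0.9946 and 1.007, with a biological coefficient of variation of 3.47%. Standard errors were taken as the absolute log2 fold change over the root of F. No library was a duplicate of another, since replicates differed beyond sampling noise (chi-square per row 1.73 to 5.79 over 13066 rows). The fit was tested on simulated data.

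Also tried were DESeq2 1.42.0, unblocked and with the batch block, other scalings and filters, limma 3.58.1 (voom, and trend on log2 FPKM where the mean FPKM reached 0.5), a threshold of 0.01, other member thresholds, and fits without each library or batch. The labels state a shared batch, so its number pairs the libraries. Deviations were not shared within pairs: same-numbered libraries correlated at -0.09, 0.08, -0.02 and -0.09 over 10444 rows, other pairs between -0.12 and 0.14.

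Named are the 15 largest rises and 15 largest falls among calls with one direction in all 4 batch pairs, the 10 highest levels, the 3 rows on either side of the threshold, named rows overlapping or within 1000 bases head to head, and members within 10000 bases of clock genes, Hes7, Gfra1 or Thra. Other called members that the text names are marked as named after their values were seen. Not every called member is named, and 1 row that the rule takes is not reported here. The members and lists were chosen with earlier results of these data known. Pseudogene members were aligned to named transcripts of GENCODE M21 with BLAST 2.17.0. Its coordinates and those of RefSeq (GRCm38) were not combined with the table's. Figures were drawn with matplotlib 3.10.9.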

Additional observations from a re-analysis of the deposited data

Results flagged for a closer look

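Of 172 groups of 4 libraries looked at, 1 for each named member and treatment, 8 had a library far from the other 3, with Dixon's ratio above its 95% critical value, which chance alone passes in about 1 group in 20. Gm28438 was at 10.4 CPM in Mic-628 1, against 8.33 to 8.66 CPM in the other treated libraries. Gm37939 was at 3.80 CPM in vehicle 3, against 4.39 to 4.48 CPM. 1700065D16Rik was at 1.55 CPM in vehicle 3, against 1.21 to 1.26 CPM. D930015M05Rik was at 0.838 CPM in Mic-628 3, against 1.37 to 1.44 CPM. ENSMUSG00000139182, opposite the glycolytic enzyme gene Tpi1, was at 303 CPM in Mic-628 4, against 270 to 276 CPM, and its call (log2 fold change -0.20, edgeR adjusted p = 0.0183) was lost without vehicle 2 or Mic-628 1, 2 or 3 (up to 0.105). Gm45669, opposite Fcgrt and Rcn3, was at 20.8 CPM in vehicle 4, against 19.4 CPM in the others. ENSMUSG00000134437, opposite the mitochondrial ribosomal protein gene Mrpl22, was at 5.30 CPM in Mic-628 1, against 5.98 to 6.01 CPM. Gm56125, within Ftl1, was at 438 CPM in Mic-628 4, against 478 to 486 CPM. ENSMUSG00000139182, Gm45669, ENSMUSG00000134437 and Gm56125 were named after their values were seen.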

How the results depend on the processing

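Counts of calls depended on the setting. Against 74 members called (32 higher, 42 lower) and 749 rows in all, the counts of members, higher, lower and all rows were 43, 16, 27 and 586 with DESeq2, 21, 11, 10 and 251 with the replicate block in DESeq2, 31, 20, 11 and 277 in limma-trend on log2(FPKM + 1), 31, 20, 11 and 273 on log2(FPKM + 0.1), and 23, 15, 8 and 330 at a threshold of 0.01. With the replicate block in edgeR they were 65, 27, 38 and 624, with 56 members shared. There 18 of the 74 lost the call and, among the rows named, Gm13394 gained it; this edgeR block changed no other call of a named member. Without the low-count filter 67 members were lower. Leaving out batch 1 gave 25 lower, batch 2 gave 28, 18, 10 and 331, and batch 3 gave 29, 13, 16 and 292. Leaving out 1 library gave 34 to 91 members, 18 to 34 higher, 16 to 62 lower and 426 to 802 rows. Without vehicle replicates 1 and 2, an alternative chosen after seeing the data, 38, 20, 18 and 498 remained past the threshold. Of the 470 members overlapping no other row with a count, a smaller set, 9 were called (3 higher, 6 lower). That is 1.91%, against 4.37% of all tested rows. The cause of these differences was not tested. Other scalings, limma-voom, the stricter filter and member thresholds of 2 or 0.5 CPM stayed within 1.5 times of each count.

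No called member changed sign in any refit over libraries, scalings or tools. The refits reuse the libraries on which these members were called, so a change of sign was unlikely and this is no separate support. Of 2030 refitted values of named members, 1387 kept direction and call, 625 lost the call, 9 gained it and 9 reversed, in members not called. ENSMUSG00000140383 became 0.0094 without vehicle replicate 4, 0.0115 without Mic-628 replicate 1 and 0.0077 without batch 1. Gm45713 became 0.0024 without vehicle replicate 1, 0.0258 without batch 1 and 0.0219 without vehicle replicates 1 and 2. Gm49804 became 0.0048 without Mic-628 replicate 1 and 0.0162 without batch 1, and D930015M05Rik 0.1013 without batch 3. Over the fits without 1 library these ranged from -0.0188 to 0.0115 for ENSMUSG00000140383, -0.0576 to 0.0024 for Gm45713 and -0.0533 to 0.0048 for Gm49804. The coefficient of variation was 16.0% at 1 to 3 CPM, which limits the precision of values there.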

Other observations

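Further called members lay opposite genes not yet described, and were named after their values were seen. Gm44649, opposite the scaffold protein gene Iqgap1, went from 22.5 ± 1.69 to 25.9 ± 0.766 CPM (log2 fold change 0.20, edgeR adjusted p = 0.0382), and Gm49077, opposite Azin1, an antizyme inhibitor gene, from 21.2 ± 0.524 to 24.6 ± 2.23 CPM (0.21, 0.0441; 0.0746 with the block). 2310002F09Rik, opposite the protease gene Klk8, went from 2.21 ± 0.371 to 3.24 ± 0.378 CPM (0.54, 0.0307). Gm29233, opposite the matrix glycoprotein gene Thbs1, went from 72.4 ± 3.19 to 65.8 ± 1.53 CPM (-0.14, 0.0248; 0.0520 with the block). ENSMUSG00000141453, opposite the glycolytic enzyme gene Pgam1, went from 31.4 ± 1.55 to 25.9 ± 2.48 CPM (-0.28, 0.00423; 0.0849 without batch 3). Gm48682, opposite the basement membrane gene Nid1, went from 21.7 ± 2.90 to 17.6 ± 1.16 CPM (-0.31, 0.0167). Leaving out single libraries ended each of these calls except that of ENSMUSG00000141453, with adjusted p of up to 0.118 for Gm44649, 0.193 for Gm49077, 0.135 for 2310002F09Rik, 0.143 for Gm29233 and 0.0814 for Gm48682.

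Called rows with no overlapping named gene included 4632415L05Rik, 8.44 ± 0.554 to 10.2 ± 0.344 CPM (0.27, 0.0421; 0.0732 with the block), 4930562F07Rik, 2.73 ± 0.318 to 3.76 ± 0.195 CPM (0.45, 0.0387; 0.0564 with the block), and ENSMUSG00000135826, 13.7 ± 2.59 to 10.2 ± 0.625 CPM (-0.42, 0.0137; 0.0750 without vehicle 2), each by edgeR. The vehicle and Mic-628 libraries did not overlap for 4632415L05Rik and 4930562F07Rik and overlapped for ENSMUSG00000135826. The calls of 4632415L05Rik and 4930562F07Rik, both named after their values were seen, were each lost in 6 of 8 fits without a library (adjusted p up to 0.148 and 0.128).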
